A study of Mus musculus with 48 samples.

Results

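RNA-seq of dissected cortex from WT mice at embryonic day 14.5 (E14.5) and at 1 month was compared across all genes. These were 12 of the 48 libraries of the series, 6 at each age, chosen by their age and genotype labels. All 12 came from WT male mice on the C57BL/6J background, and the study took the cortex of one hemisphere from each mouse. The other 36 libraries were WT mice at 6 and 12 months and, at all 4 ages, mice heterozygous for Chd8 V986*/+, a stop codon placed in 1 copy of the chromatin remodeler gene Chd8. The deposited values were variance-stabilizing transformation (VST) values on a log2 scale for 24444 genes. On this scale a difference of 1 is close to a doubling for a well-expressed gene and understates the change of a gene near 2.1433, the floor of the scale, below which some values also lay. VST values carry no correction for gene length, so levels were compared within a gene, and between genes only changes were compared. A gene was called higher or lower where its limma adjusted p was below 0.1, the threshold of the study, and the change was called large where it was also at least 1 log2 unit.

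At E14.5 the mouse cortex is in the middle of neurogenesis. Radial glia divide along the ventricle, produce intermediate progenitors, and newborn neurons migrate outward to form the layers from deep to superficial. By 1 month the neurons have formed synapses and fire with mature channel and receptor sets, astrocytes tile the tissue, and oligodendrocytes that arise mostly after birth have wrapped axons in myelin. The comparison therefore covered cells of different kinds as well as cells of different maturity. In whole tissue, fewer cells of a type and less RNA per cell cannot be told apart.

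Age separated the 12 libraries by far more than mice of one age differed. The first principal component held 91.7% of the variance and divided the ages. Pairs of libraries of one age correlated at 0.992 or above across genes, and pairs of different ages at 0.936 or below. Of 17285 genes tested, 14821 (85.7%) were called. These were 7509 genes higher (43.4%) and 7312 genes lower (42.3%) at 1 month. Large changes were seen in 3932 genes that were higher (22.7%) and 3055 genes that were lower (17.7%). A difference of at least 4 log2 units was reached by 348 genes that were higher and 212 that were lower. Of the genes with a large increase, 331 lay within 0.5 of the floor at E14.5, and of those with a large decrease 155 lay within 0.5 of it at 1 month. Over all genes tested the median difference was 0.019. After quantile normalization of the 12 libraries it was −0.11, so calls of small size depend on the scaling.

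The libraries were checked for markers of cortex and of neighboring tissue before genes were compared. The cortical genes Emx1, Tbr1 and Neurod6 were above 8 in all 12 libraries. Cortical genes were thus detected in every library, but markers of neighboring regions were also above their 1-month values at E14.5, by amounts that differed between embryos. Mean VST expression of 13 ganglionic eminence genes, which mark the origin of cortical interneurons, was 9.35 to 9.85 at E14.5 and 6.08 to 6.79 at 1 month. The mean of 12 diencephalon genes was 7.65 to 9.57 at E14.5 and 3.84 to 4.48 at 1 month. The embryos differed most in 31 markers of midbrain, hindbrain and spinal cord. The mean of this list was 6.58 in replicate 5 (below, embryo 5), 4.93 in replicate 3, 4.92 in replicate 2, 4.31 in replicate 4, 3.69 in replicate 1 and 3.04 in replicate 6. At 1 month it was 2.66 to 2.88. En1, a transcription factor of the midbrain and hindbrain boundary, spanned 2.82 to 9.07 (median 8.22) at E14.5 and 2.04 to 3.27 (median 2.98) at 1 month, so its groups overlapped.

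**Figure D1:**
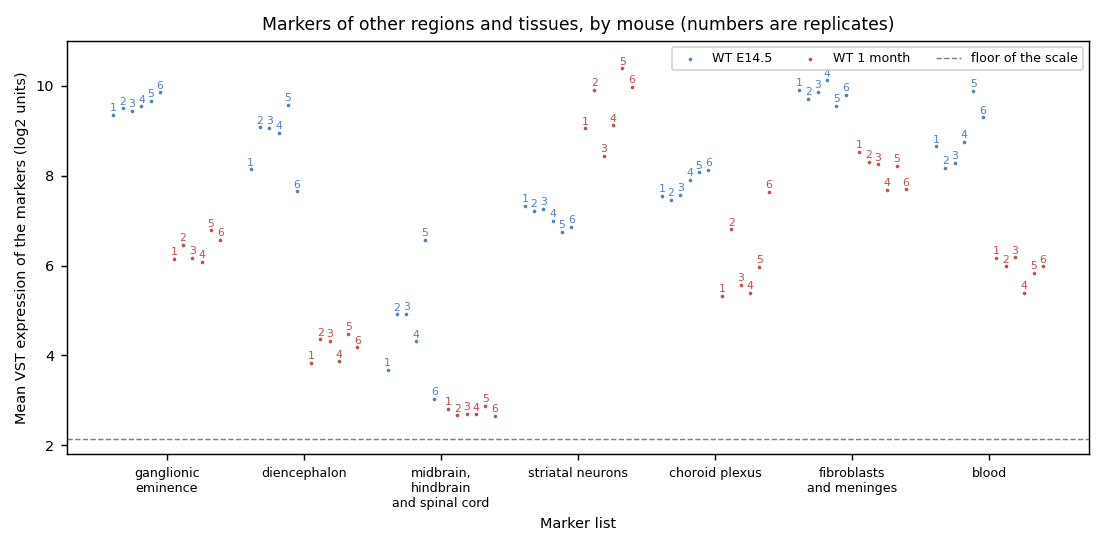
Mean VST expression (log2 units) of 7 lists of marker genes of other regions and tissues, with 1 point per mouse, numbered by replicate, in blue for E14.5 and in red for 1 month. The dashed line is the floor of the scale. The midbrain, hindbrain and spinal cord list reached 6.58 in replicate 5 and 3.04 in replicate 6 at E14.5, while striatal and choroid plexus markers varied most between mice at 1 month.

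All 13 ganglionic eminence genes had large decreases, led by Nkx2-1 (−5.49), Isl1 (−4.56), Ebf1 (−3.98) and Lhx8 (−3.95), with a median difference of −2.78. Of the 12 diencephalon genes 11 had large decreases, and the median was −4.96. Irx2 (−5.66), Gbx2 (−5.55) and Lhx9 (−5.11), all transcription factors, led this list. Of the 23 tested midbrain, hindbrain and spinal cord genes, 18 had large decreases with all 6 embryos and 8 with embryos 1 and 6 alone. Embryos 1 and 6 had the lowest means of this same list, so the count of 8 is not independent of that choice. The genes of these lists are known as genes of other regions, and the part of such RNA in the other decreases was not tested. With replicates 1 and 6 as the only E14.5 libraries, a comparison added after the values had been seen, 4055 genes had large increases and 3157 had large decreases. At 1 month, all 10 striatal genes had large increases (median 2.46), among them Ppp1r1b (3.84), Serpina9 (3.3) and Drd1 (2.58), and their mean per mouse ran from 8.45 to 10.39. Of the 10 choroid plexus genes 8 had large decreases, with a median of −1.93. Ttr, the transthyretin made by choroid plexus, spanned 12.45 to 13.53 (median 13.05) at E14.5 and 8.28 to 13.50 (median 9.88) at 1 month, where only replicates 2 and 6 were above 12. Kl, which encodes klotho, was the 1 gene of this list with a large increase (2.83).

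Replicate 6 at E14.5 also stood apart in genes of progenitors and synapses. Its mean over 27 mitosis genes was 11.05 against 10.24 to 10.55 in the other embryos, and its mean over 31 genes of synaptic vesicles and release was 10.49 against 10.71 to 10.99. These gaps were small beside the difference between ages in both lists. Over all genes tested, the median SD between mice was 0.18 at E14.5 and 0.13 at 1 month.

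The genes with the largest changes were glial and synaptic genes that were higher, and globin, progenitor and growth genes that were lower. Mobp, which encodes a myelin-associated oligodendrocyte basic protein (chromosome 9, 120058860 to 120090602 in mm9), showed the largest increase of all genes tested. Its values ranged from 3.01 to 3.74 (median 3.6) at E14.5 and from 12.94 to 13.55 (median 13.25) at 1 month, a difference of 9.73 (SE 0.12, limma adjusted p = 4.85e-18). Gfap, the intermediate filament of astrocytes (chromosome 11, 102748650 to 102762226), was 3.35 to 4.42 (median 3.62) at E14.5 and 12.25 to 12.67 (median 12.48) at 1 month, a difference of 8.74 (SE 0.16, limma adjusted p = 1.30e-16). The lowest 1-month mouse lay far above the highest embryo for both genes. The top 10 also held Gpr37l1 (8.88), Fam107a (8.3), Ddn (8.2), Mag (8.11), Nrgn (7.99), Mal (7.95) and Itpka (7.83). Mag and Mal are myelin genes, whereas Ddn, Nrgn and Itpka encode proteins of dendrites and spines.

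Hbb-y, an embryonic beta-like globin (chromosome 7, 111000259 to 111001754 in mm9), had the largest decrease. It ranged from 10.59 to 13.45 (median 11.33) at E14.5 and from 2.34 to 3.92 (median 3.22) at 1 month, a difference of −8.55 (SE 0.42, limma adjusted p = 1.80e-11). Among the 20 genes, only Hba-x and Ebf3 had a wider SD between the mice of one age, in both cases in the embryos. Igf2bp1, an RNA-binding protein of fetal tissue (chromosome 11, 95818477 to 95867254), was 10.73 to 11.47 (median 10.88) at E14.5 and 3.1 to 4.19 (median 3.4) at 1 month, a difference of −7.46 (SE 0.17, limma adjusted p = 1.63e-15). The others were Hba-x (−7.22), H19 (−7.07), Gpc2 (−6.95), Igfbpl1 (−6.79), Draxin (−6.74), Eomes (−6.57), Fgf15 (−6.47) and Ebf3 (−6.44). Draxin guides growing axons, Gpc2 is a glypican of growing axons, and Ebf3 is a transcription factor of early-born neurons. Ebf3 differed between embryos, from 9.67 to 12.73 (median 12.10) at E14.5. Its difference was −4.93 with embryos 1 and 6 alone and −6.82 without embryo 6. The part of RNA from other regions in this decrease was not tested. The groups of all 20 genes did not overlap, as the rule that chose them required. Over all genes tested, the groups did not overlap in 35% of genes that were higher and 33.5% that were lower.

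**Figure D2:**
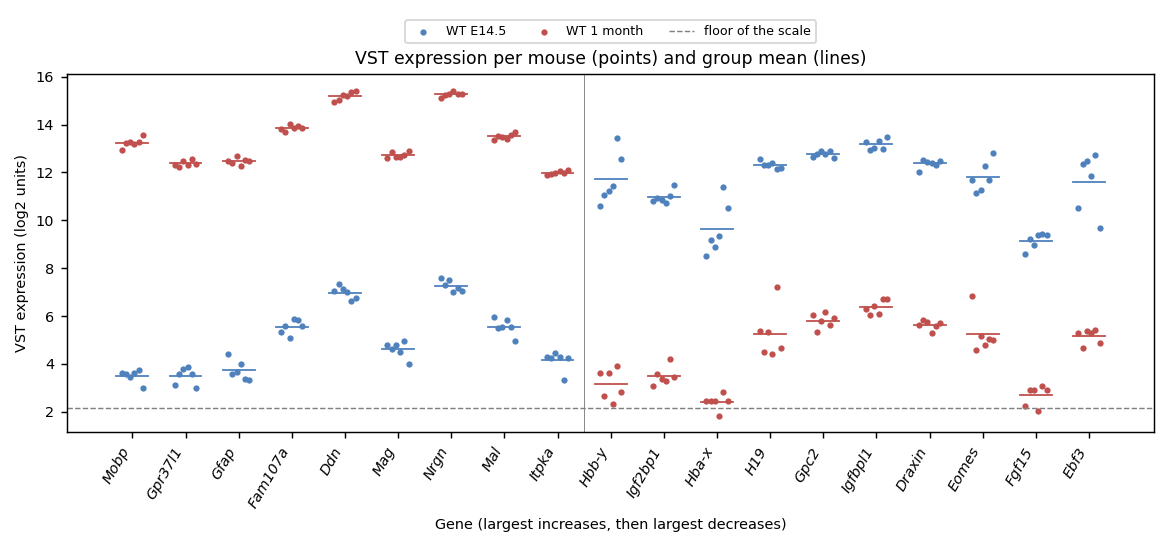
VST expression (log2 units) of 9 of the 10 genes with the largest increase and of the 10 with the largest decrease, with 1 point per mouse, a line at each group mean and a dashed line at the floor of the scale. Mobp rose by 9.73 and Hbb-y fell by 8.55 log2 units, and no point of one age reached the other age in any of these genes.

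Genes of dividing cells were lower almost throughout. All 22 genes of radial glia and intermediate progenitors were lower, 20 of them by at least 1 log2 unit, and their median difference was −2.53. Eomes, the transcription factor that marks intermediate progenitors, ranged from 11.14 to 12.82 (median 11.69) at E14.5 and from 4.6 to 6.84 (median 5.02) at 1 month, a difference of −6.57 (SE 0.35, limma adjusted p = 3.91e-11). Neurog2, a proneural factor of cortical progenitors, was 11.27 to 12.20 (median 11.54) at E14.5 and 4.91 to 5.95 (median 5.61) at 1 month. Both had values at E14.5 that lay far above all 1-month mice. Sox3 (−4.76) and Neurog1 (−4.53) completed the 4 largest decreases. Sox2 (−1.94), a factor of neural stem cells, and Hes5 (−1.41), a target of Notch, were lower too, and Emx1 (−0.97) was 1 of the 2 that did not reach 1 log2 unit.

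DNA replication genes were lower in 32 of 33 cases, 29 of them by a large change, with a median of −3.04. Rrm2, a subunit of ribonucleotide reductase, ranged from 11.15 to 12.01 (median 11.38) at E14.5 and from 5.75 to 6.76 (median 6.4) at 1 month, a difference of −5.1 (SE 0.17, limma adjusted p = 1.20e-13). The other large decreases were led by Chaf1b (−4.76), a chromatin assembly factor, and by the helicase subunits Mcm2 (−4.43) and Mcm3 (−4.41). Ccne1, which encodes cyclin E1, was the 1 gene that was higher (0.6, and 0.38 with embryos 1 and 6 alone). All 27 mitosis genes had large decreases, and their median was −4.77, the lowest of the lists apart from that of the diencephalon markers. Top2a, the topoisomerase that untangles chromosomes, was 12.76 to 13.63 (median 13.03) at E14.5 and 6.23 to 7.36 (median 7.14) at 1 month, a difference of −6.09 (SE 0.18, limma adjusted p = 2.86e-14). Mki67 (−5.7), the antigen scored as a mark of proliferation, Bub1 (−5.61), a spindle checkpoint kinase, and Ccnb1 (−5.6), cyclin B1, followed. The 1-month libraries still held values well above the floor for these genes. The mean over the mitosis list was 5.63 to 5.88 at that age.

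Replication and mitosis genes are known to be switched by 2 promoter elements, the E2F site and the cell cycle genes homology region (CHR). Promoters of 300 bases, 250 before the start site and 50 after it, were read from RefSeq in build GRCm38.p6 and searched on both strands. The E2F letters used were TTTCCCGC, TTTGGCGC, TTTCGCGC and TTTGCCGC, and the CHR letters were TTTGAA. E2F letters were present in 11 of 31 promoters (35.5%) of 27 replication genes, in 1 of 23 promoters (4.35%) of 22 mitosis genes and in 744 of 32851 promoters (2.26%) overall. CHR letters were present in 18 of 23 promoters (78.3%) of the mitosis genes, in 4 of 31 (12.9%) of the replication genes and in 5878 (17.9%) overall. The windows below hold the 150 bases before the start site, with the matched letters in capitals, for the 2 genes of each list with the largest change among those with a match in this stretch. The Cdc6 window lies on the plus strand at chr11:98908001-98908150, and those of Mcm6 at chr1:128359706-128359855, Top2a at chr11:99024190-99024339 and Mki67 at chr7:135716380-135716529 lie on the minus strand.
Cdc6, E2F: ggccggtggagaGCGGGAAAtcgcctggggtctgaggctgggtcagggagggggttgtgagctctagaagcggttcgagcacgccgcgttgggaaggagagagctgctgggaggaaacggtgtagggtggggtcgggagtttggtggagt
Mcm6, E2F: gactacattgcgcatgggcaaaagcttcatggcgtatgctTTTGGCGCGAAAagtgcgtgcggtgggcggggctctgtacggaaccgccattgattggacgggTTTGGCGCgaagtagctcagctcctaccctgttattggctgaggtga
Top2a, CHR: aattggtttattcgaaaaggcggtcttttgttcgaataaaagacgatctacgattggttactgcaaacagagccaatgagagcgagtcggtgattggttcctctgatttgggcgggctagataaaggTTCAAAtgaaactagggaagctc
Mki67, CHR: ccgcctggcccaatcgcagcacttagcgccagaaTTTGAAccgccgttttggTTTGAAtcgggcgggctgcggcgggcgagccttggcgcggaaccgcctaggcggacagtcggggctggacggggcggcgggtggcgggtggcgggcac
The Mcm6 window holds 3 matches, of which the first 2 overlap, and the Mki67 window holds 2. Cdc6, which loads the Mcm helicase onto origins, fell by 3.98 log2 units, and Mcm6, a subunit of that helicase, by 3.76. A match in these letters is a description of the sequence and not of binding.

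Genes of newborn and migrating neurons were lower in 26 of 30 cases, 17 of them by a large change (median −1.27). Dcx, the microtubule protein of migrating neurons, ranged from 15.25 to 15.70 (median 15.59) at E14.5 and from 9.91 to 10.42 (median 10.31) at 1 month, a difference of −5.32 (SE 0.1, limma adjusted p = 1.96e-16). The 4 largest decreases were those of the transcription factors Nhlh2 (−6.05), Sox11 (−6.0) and Nhlh1 (−5.04) and of Dcx itself. In contrast, Pafah1b1 (0.74), the lissencephaly gene that acts with dynein, Vldlr (0.64), a reelin receptor, and Unc5d (0.23) were higher. After quantile normalization the difference of Pafah1b1 was 0.21. The 8 heterochronic and fetal RNA-binding genes, which include the Lin28 and Igf2bp families, had a median of −3.14. Igf2bp1 (−7.46), Hmga2 (−5.64), Igf2bp2 (−5.48), Igf2bp3 (−4.32), Lin28a (−1.95) and Lin28b (−1.54) had large decreases. Hmga1 (−0.95) was lower by less, and Trim71 (0.76) was higher with overlapping groups and by 0.43 after quantile normalization.

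Imprinted genes, many of which govern fetal growth, fell more often than they rose. Of 26, 16 had large decreases and 4 large increases, with a median of −1.48. H19, the noncoding RNA beside Igf2, ranged from 12.13 to 12.58 (median 12.32) at E14.5 and from 4.43 to 7.21 (median 4.99) at 1 month. Asb4 (−4.89), Cdkn1c (−4.58), a cell cycle inhibitor, and Magel2 (−4.06) were also among the 4 that fell most. Impact (3.29), Nap1l5 (2.56) and Meg3 (2.16), a noncoding RNA, moved the other way. Blood genes were all lower by a large change in 13 of 13 cases (median −2.13). Besides Hbb-y and Hba-x these included Hbb-bh1 (−3.35), a further embryonic globin near the floor at 1 month, and Slc4a1 (−2.82), the anion exchanger of red cells. Reads of near-identical globin genes can be split between copies, so single adult globin values are uncertain. Fibroblast and meninges genes were lower by a large change in 8 of 12 cases (median −1.54), led by the collagen gene Col3a1 (−4.35), Zic1 (−3.92), Lum (−2.37) and Col1a1 (−2.19).

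Cortical layer transcription factors split between directions. Of 22, 8 had large decreases (36.4%) and 4 large increases (18.2%), with a median of −0.87. Over all genes tested these shares were 17.7% and 22.7%. Foxp2, a factor of deep layers, was 11.20 to 12.05 (median 11.68) at E14.5 and 8.67 to 9.42 (median 9.01) at 1 month, a difference of −2.62 (SE 0.16, limma adjusted p = 3.69e-10). Nfib (−2.29), Pou3f2 (−1.76) and Sox5 (−1.68) were the next largest decreases. Mef2c, a factor that is induced as neurons mature, ranged from 10.44 to 11.29 (median 11.06) at E14.5 and from 14.25 to 14.72 (median 14.36) at 1 month, a difference of 3.39 (SE 0.12, limma adjusted p = 3.29e-13). Rorb (1.81), a marker of layer 4, and Etv1 (1.67), a marker of layer 5, also rose. Tbr1 fell by 0.47, with overlapping groups, and its difference was −0.79 with embryos 1 and 6 alone and −0.7 after quantile normalization.

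Cytoskeletal genes moved both ways. Of 22 genes of tubulins, microtubule-associated proteins and neurofilaments, 7 had large decreases (31.8%) and 6 large increases (27.3%, median −0.43). Over all genes tested these shares were 17.7% and 22.7%. Tubb2b (−4.32), Tubb5 (−2.63), Tuba1a (−2.6) and Tubb3 (−2.32), tubulins of growing neurons, fell most. Tuba4a, a tubulin of mature neurons, was 7.63 to 8.19 (median 7.69) at E14.5 and 13.56 to 13.78 (median 13.73) at 1 month, a difference of 5.9 (SE 0.09, limma adjusted p = 3.18e-17). Nefh (4.14), the heavy neurofilament, and Map1a (3.93) were next. Tubulin genes are similar in sequence, so their single values are uncertain where reads could be shared.

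Synaptic genes were higher almost without exception. Of 31 genes of synaptic vesicles and release, 30 had large increases, and the median was 3.0. Slc17a7, which encodes the vesicular glutamate transporter VGLUT1 (chromosome 7, 52419291 to 52431508 in mm9), ranged from 8.72 to 9.86 (median 9.47) at E14.5 and from 15.21 to 15.49 (median 15.35) at 1 month, a difference of 5.97 (SE 0.14, limma adjusted p = 2.14e-15). Snap25, a SNARE protein of vesicle fusion, was 10.46 to 11.15 (median 10.99) at E14.5 and 15.76 to 16.06 (median 15.90) at 1 month, a difference of 4.98 (SE 0.1, limma adjusted p = 5.35e-16). Sv2b (4.9) and Vamp1 (4.84) completed the 4 largest. Slc17a6, which encodes VGLUT2, was the 1 member that fell (−1.31).

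On the postsynaptic side, 23 of 28 scaffold and adhesion genes had large increases and the median was 2.33. Camk2a, the alpha subunit of the kinase that is abundant in spines, ranged from 10.01 to 10.33 (median 10.23) at E14.5 and from 16.59 to 16.90 (median 16.82) at 1 month, a difference of 6.57 (SE 0.067, limma adjusted p = 9.05e-19). Nrgn (7.99), a calmodulin-binding protein of spines, rose by more, and Baiap2 (4.22) and Dlgap1 (4.15) followed. Homer3 was the 1 gene that was lower (−1.5). The genes of neuroligins 2 and 3 (Nlgn2, Nlgn3) and neurexin 2 (Nrxn2) were higher by less than 1 log2 unit. The call of Nlgn2 was lost after quantile normalization (0.076), and Nrxn2 was higher by 1.28 with embryos 1 and 6 alone.

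Glutamate receptor genes had large increases in 16 of 23 cases (median 1.84). Grin2c, an NMDA receptor subunit gained after birth, ranged from 4.22 to 4.92 (median 4.56) at E14.5 and from 10.43 to 11.04 (median 10.74) at 1 month. Grin2a (5.64), Grin1 (4.1), the obligatory NMDA receptor subunit, and Gria3 (3.07), an AMPA receptor subunit, followed. Grin3b (−1.03), a further NMDA receptor subunit, and Grik3 (−0.58), a kainate receptor subunit, were lower. GABA receptor genes rose in 15 of 15 cases, all by a large change (median 2.24). Gabrd, a subunit of extrasynaptic receptors, was 3.57 to 4.91 (median 4.22) at E14.5 and 10.26 to 10.58 (median 10.42) at 1 month, a difference of 6.15 (SE 0.16, limma adjusted p = 1.16e-14). Gabra4 (3.58) and Gabbr2 (3.52) were also among the larger increases.

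Voltage-gated and related channel genes had large increases in 28 of 36 cases and large decreases in 2 (median 3.04). Scn4b, an auxiliary subunit of sodium channels, ranged from 3.8 to 4.66 (median 4.02) at E14.5 and from 10.84 to 12.30 (median 11.51) at 1 month, a difference of 7.44 (SE 0.23, limma adjusted p = 7.69e-14). The inward rectifier genes Kcnj4 (7.11) and Kcnj9 (5.06) also rose. Hcn4 (−2.61) and Hcn3 (−1.15), genes of pacemaker channels, fell, and so did Scn3a (−0.84), while Hcn2 was among the large increases. With embryos 1 and 6 alone the list held 29 large increases and 1 large decrease, and the difference of Scn3a was −0.51. Interneuron genes had large increases in 12 of 17 cases (median 2.23). Pvalb, the calcium buffer of fast-spiking interneurons, was 2.92 to 5.35 (median 3.93) at E14.5 and 9.58 to 9.96 (median 9.75) at 1 month, a difference of 5.88 (SE 0.31, limma adjusted p = 4.42e-11). Vip (6.61), Cck (5.74) and Cort (4.25), which encode neuropeptides, also rose. Lhx6 (−1.35), the transcription factor that specifies part of these cells, was lower.

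Genes induced by neuronal activity were low in the embryo beside the 1-month cortex. Of 18, 16 had large increases, and the median of 4.44 was second to that of myelin genes among the 43 lists. Egr1, an immediate early transcription factor, ranged from 6.41 to 7.05 (median 6.59) at E14.5 and from 13.20 to 14.08 (median 13.67) at 1 month, a difference of 7.0 (SE 0.13, limma adjusted p = 2.51e-16). Arc, which encodes a synaptic plasticity protein, was 6.51 to 7.47 (median 6.78) at E14.5 and 12.63 to 13.58 (median 13.38) at 1 month, a difference of 6.4 (SE 0.17, limma adjusted p = 8.38e-15). Egr4 (7.39) and Egr3 (6.3) were the other members of the 4 largest. Ier2 was lower (−0.54). The cyclic AMP response element TGACGTCA, an element known from such genes, was present in 1 of 23 promoters (4.35%) of 13 of these genes and in 588 (1.79%) of all 32851.

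**Figure D3:**
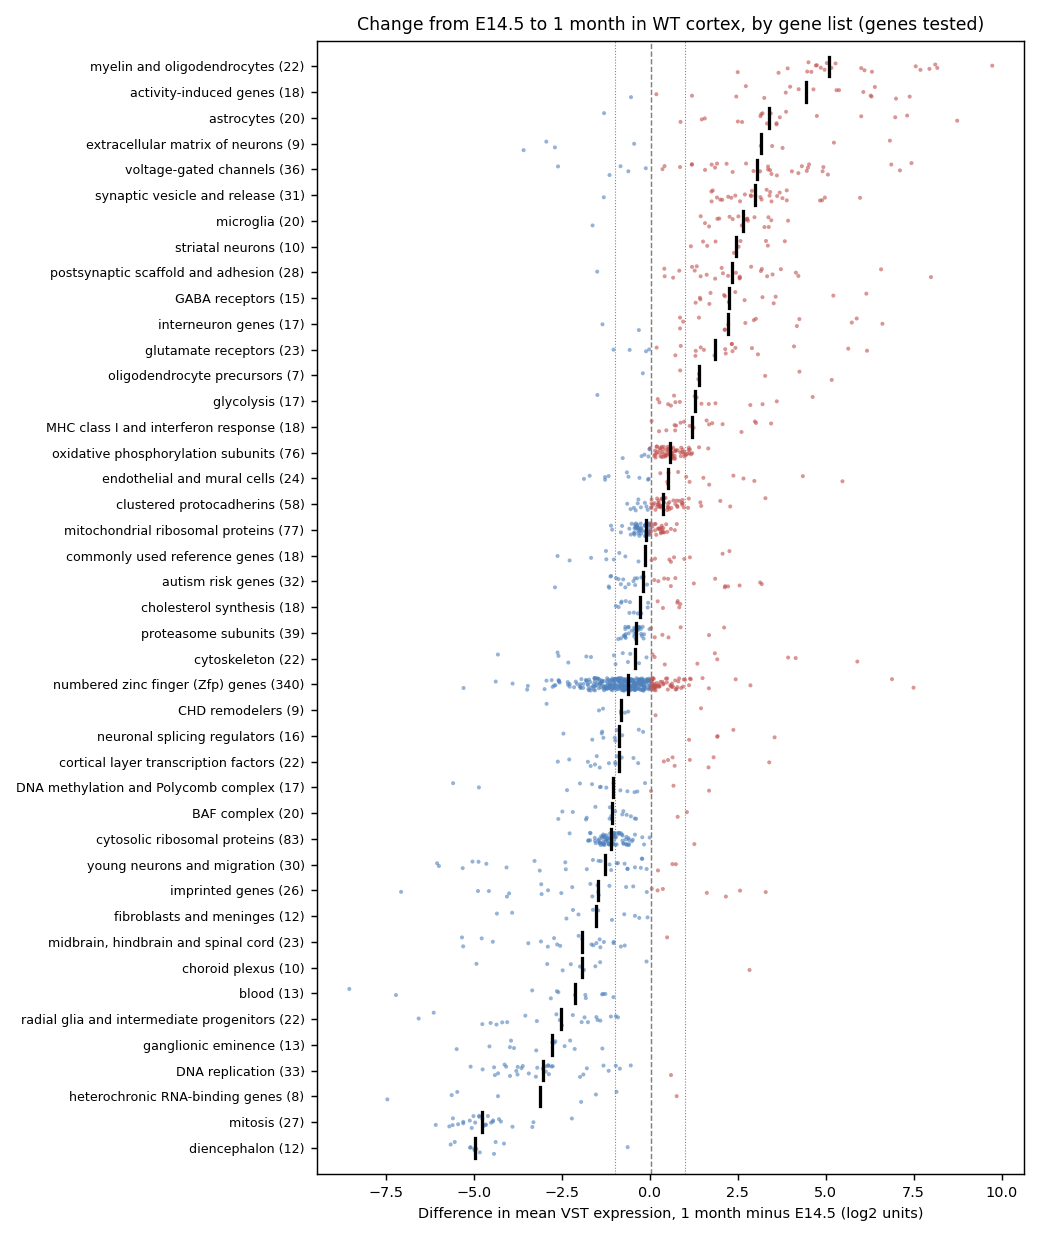
Difference in mean VST expression between 1 month and E14.5 (log2 units) for each tested gene of 43 lists, ordered by their median (black bar), with increases in red and decreases in blue. The dashed line is the median of all genes tested, and dotted lines are at 1 and −1. Medians ran from −4.96 for diencephalon markers to 5.1 for myelin genes.

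Oligodendrocyte genes rose, those of mature cells by more. All 22 genes of myelin and mature oligodendrocytes had large increases, with a median of 5.1, the highest of the 43 lists. Mbp, the basic protein that compacts myelin, ranged from 8.7 to 9.18 (median 8.94) at E14.5 and from 16.43 to 16.85 (median 16.64) at 1 month, a difference of 7.69 (SE 0.087, limma adjusted p = 2.18e-18). Even the smallest increase in the list, that of Nkx6-2, was 2.5. The 7 genes of oligodendrocyte precursors had a median of 1.4. Gpr17 (5.17), a receptor of differentiating precursors, Sox10 (4.25) and Olig1 (3.28), both lineage factors, rose most. Pdgfra (1.4), the growth factor receptor of precursors, Cspg4 (1.38), which encodes NG2, and Olig2 (0.86) were higher by less, and Nkx2-2 was not called (−0.2). Without embryo 6, Nkx2-2 was called lower (−0.51), and without embryo 5 its difference was −0.067. With embryos 1 and 6 alone it was called higher (0.6).

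Astrocyte genes had large increases in 18 of 20 cases (median 3.38). Aqp4, the water channel of astrocyte end feet, ranged from 5.1 to 6.41 (median 5.56) at E14.5 and from 12.37 to 12.71 (median 12.64) at 1 month, a difference of 6.98 (SE 0.17, limma adjusted p = 3.52e-15). Gfap (8.74), S100b (7.31) and Agt (6.01), which encodes angiotensinogen, were the others of the 4 largest. Sox9, a factor also used by progenitors, was lower (−1.3). Microglial genes had large increases in 19 of 20 cases (median 2.64). P2ry12, the purinergic receptor of resting microglia, was 6.69 to 6.99 (median 6.9) at E14.5 and 10.12 to 10.56 (median 10.27) at 1 month, a difference of 3.45 (SE 0.08, limma adjusted p = 2.19e-15). Itgam (3.93), Ctss (3.38) and Tmem119 (3.37) rose alike, and Sall1 fell (−1.63), a factor that embryonic progenitors express too. Of 18 genes of MHC class I and the interferon response, 17 were higher, 10 by a large change (median 1.19). They were led by Ifi27 (3.45), Ifit3 (3.02), Ifit1 (2.98) and Tap2 (2.6), the peptide transporter subunit.

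Vascular genes did not move as one. Of 24 endothelial and mural genes, 9 had large increases (37.5%) and 5 large decreases (20.8%), with a median of 0.5. Over all genes tested these shares were 22.7% and 17.7%, so the share of decreases was near that of all genes. Slco1a4, a transporter of the blood-brain barrier, ranged from 5.74 to 6.47 (median 6.2) at E14.5 and from 10.20 to 10.75 (median 10.46) at 1 month, a difference of 4.35 (SE 0.12, limma adjusted p = 2.25e-14). Slco1c1 (2.66), the thyroid hormone transporter of the barrier, Ly6c1 (5.47), which has near copies in the genome, and Myh11 (2.97), the myosin of smooth muscle, were also higher. Kdr, the VEGF receptor of growing vessels, was 10.21 to 10.91 (median 10.61) at E14.5 and 8.19 to 9.24 (median 8.65) at 1 month, a difference of −1.87 (SE 0.16, limma adjusted p = 1.86e-08). Cdh5 (−1.71), the adhesion protein of endothelial junctions, and Kcnj8 (−1.28), a pericyte channel, were lower too.

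The 9 genes of the neuronal extracellular matrix exchanged members. Acan (3.48), Bcan (3.77), Hapln1 (5.23), Hapln4 (6.82) and Tnr (3.15), components of the perineuronal net, were all higher. Hapln4, a link protein, ranged from 4.14 to 5.0 (median 4.66) at E14.5 and from 11.16 to 11.58 (median 11.45) at 1 month. In contrast, Tnc (−3.59), Vcan (−2.94) and Has2 (−2.7), known from the embryonic matrix, had large decreases. Ncan was lower by less, with overlapping groups (−0.45). Its call was lost with embryos 1 and 6 alone (−0.2), and its difference was −0.93 after quantile normalization.

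Among genes of energy metabolism, glycolysis genes were higher in 16 of 17 cases, 9 by a large change (52.9%, median 1.27). Eno2, the neuronal enolase, was 9.21 to 9.96 (median 9.8) at E14.5 and 14.25 to 14.42 (median 14.36) at 1 month, a difference of 4.63 (SE 0.1, limma adjusted p = 8.86e-16). Pfkp (3.61), Aldoc (3.2) and Aldoa (2.85) were next, and Hk2, an inducible hexokinase, fell (−1.49). Nuclear genes of oxidative phosphorylation rose in 69 of 76 cases, but by a large change in only 10 (13.2%, median 0.58). Cox8a (1.66), Cox6c (1.4), Atp5s (1.2) and Uqcr11 (1.17) were the largest. Over all genes tested, 43.4% were higher and 22.7% had large increases. The share of large increases in this list was thus below that of all genes. Atp5g2 had the largest decrease of the list (−0.77).

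Genes of the cytosolic ribosome were lower. Of 83 tested genes of cytosolic ribosomal proteins, 81 were lower, 55 by a large change (median −1.1). Rplp0, which encodes a protein of the ribosomal stalk, ranged from 14.06 to 14.45 (median 14.17) at E14.5 and from 11.79 to 11.99 (median 11.92) at 1 month, a difference of −2.28 (SE 0.066, limma adjusted p = 2.86e-14). Rps26 (−1.75) and Rps9 (−1.74) followed, and Rpl3l, a form known from muscle, was the 1 gene that was higher (1.26), from near the floor. Ribosomal protein genes have many pseudogenes, so single values are uncertain where reads could be shared. The 77 genes of mitochondrial ribosomal proteins were called lower in 36 and higher in 21 cases, with a median of −0.12. Over all genes tested, 42.3% were lower and 43.4% were higher, so the share of lower genes was near that of all genes. Mrpl34 (−1.11) and Mrpl52 (−1.07) were the 2 with large decreases. Proteasome subunit genes were lower in 31 of 39 cases, none by a large change (median −0.39). The 2 with large increases, Psmb10 (2.11) and Psmb8 (1.68), encode subunits of the immunoproteasome, as does Psmb9 (0.87), whose groups overlapped and whose difference was 0.57 after quantile normalization. Of 18 cholesterol synthesis genes, 10 were lower and 6 were higher, and none had a large change (median −0.3). Over all genes tested, 85.7% were called and 40.4% had large changes, so this list was called about as often as all genes. Fdps (−0.97) and Sqle (−0.89) were lower, whereas Ebp (0.86) and Msmo1 (0.83), which act in late steps, were higher.

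Chromatin regulators were mostly lower. Of 17 genes of DNA methylation and of Polycomb complex PRC2, 9 had large decreases and 1 a large increase (median −1.03). Uhrf1, which recruits the maintenance methyltransferase to replicated DNA, ranged from 10.91 to 11.83 (median 11.08) at E14.5 and from 5.17 to 6.03 (median 5.58) at 1 month, a difference of −5.59 (SE 0.15, limma adjusted p = 1.58e-14). Ezh2, the PRC2 methyltransferase of dividing cells (chromosome 6, 47480273 to 47545340 in mm9), was 11.89 to 12.36 (median 11.95) at E14.5 and 6.82 to 7.32 (median 7.22) at 1 month, a difference of −4.86 (SE 0.093, limma adjusted p = 2.88e-16). Dnmt3b (−2.36) and Dnmt1 (−1.99) were lower too, and Ezh1 (1.68), the PRC2 methyltransferase of resting cells, and Mbd2 (0.67) were higher. Of 20 genes of the BAF remodeling complex, 18 were lower, 11 by a large change (median −1.08), led by Smarce1 (−2.6), Actl6a (−2.49), Dpf3 (−2.19) and Smarcc1 (−1.82). Bcl7b (1.05) and Smarca2 (0.79), which encodes the ATPase BRM, were higher.

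The 9 CHD remodelers included Chd8, the gene mutated in the study. Chd8 (chromosome 14, 52817826 to 52857466 in mm9) ranged from 12.33 to 12.66 (median 12.60) at E14.5 and from 11.55 to 11.87 (median 11.73) at 1 month in WT mice, a difference of −0.83 (SE 0.067, limma adjusted p = 9.34e-09). The WT groups did not overlap. Chd7 (−2.94), Chd4 (−1.45), the ATPase of the NuRD complex, and Chd1 (−1.33) had large decreases. Chd2 (−0.82), Chd9 (−0.71) and Chd6 (−0.62) fell by amounts like that of Chd8. Chd5 (1.45), known from neurons, rose. Chd3 was not called (0.16), and after quantile normalization it was called lower (−0.43). Without 1-month replicate 1 (0.19) or embryo 6 (0.20) it was called higher, and without embryo 1 its difference was 0.075. The median over the 9 was −0.82. After quantile normalization the difference of Chd8 was −1.02, which is past 1 log2 unit.

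Of 16 regulators of splicing in neurons, 11 were lower, 5 of them by a large change, and 5 were higher, all by a large change (median −0.87). Large changes thus made up 31.25% in each direction, against 17.7% lower and 22.7% higher over all genes tested. Ptbp1 (−2.46), the repressor of neuronal exons in progenitors, Ptbp2 (−1.64), Srrm4 (−1.37) and Elavl2 (−1.36) fell most. Mbnl2, a muscleblind splicing factor, was 9.05 to 9.4 (median 9.28) at E14.5 and 12.71 to 12.98 (median 12.74) at 1 month, a difference of 3.55 (SE 0.066, limma adjusted p = 2.20e-16). Rbfox3 (2.37), which encodes the antigen NeuN of mature neurons, and Mbnl1 (1.92) also rose. Of 340 tested zinc finger genes with a Zfp number, 258 were lower, 108 by a large change, and 9 had large increases (median −0.63). Zfp663 (−5.3), Zfp558 (−4.38), Zfp41 (−3.9) and Zfp57 (−3.49), which encodes a protector of imprints, fell most. Zfp831 was 2.11 to 3.06 (median 2.85) at E14.5 and 10.06 to 10.32 (median 10.13) at 1 month, a difference of 7.5 (SE 0.16, limma adjusted p = 1.29e-15), and Zfp365 (6.88) and Zfp488 (2.86), a factor of oligodendrocytes, rose as well. Clustered protocadherins, adhesion proteins that give neurons surface identity, were higher in 42 of 58 cases (median 0.36). Over all genes tested, 43.4% were higher. Large increases numbered 7 with all embryos and 17 with embryos 1 and 6 alone. The share with all embryos, 12.1%, was below the 22.7% over all genes tested. Pcdhgc5 (3.28), Pcdhb12 (2.28), Pcdhb13 (2.0) and Pcdhb14 (1.46) led the increases. Genes of the Pcdha and Pcdhg clusters share exons, so their single values are uncertain.

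Of 32 autism risk genes, the group to which Chd8 belongs, 13 were higher and 17 were lower, with a median of −0.21. Large increases were seen in 8 and large decreases in 5, shares near those over all genes tested (22.7% and 17.7%). Shank3, a scaffold of excitatory synapses, ranged from 9.85 to 10.42 (median 10.22) at E14.5 and from 13.11 to 13.62 (median 13.39) at 1 month, a difference of 3.18 (SE 0.1, limma adjusted p = 5.32e-14). Scn2a (3.13), a sodium channel, and Shank2 (2.55) rose too. Those with large decreases included the chromatin genes Asxl3, Adnp (−1.17), Kmt5b (−1.16) and Pogz (−1.12). Asxl3 was 10.78 to 11.75 (median 11.47) at E14.5 and 8.51 to 8.85 (median 8.73) at 1 month, a difference of −2.7 (SE 0.13, limma adjusted p = 2.07e-11).

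Of 18 genes in common use as references for expression assays, 16 were called and 9 of those had large changes (median −0.14). Over all genes tested, 85.7% were called and 40.4% had large changes. Hprt rose by 2.26, B2m by 2.07 and Sdha by 1.14. Tubb5 fell by 2.63, Rplp0 by 2.28, Eef1a1 by 1.67 and Actb by 1.25. Gapdh, the glycolytic enzyme, was 13.41 to 13.76 (median 13.51) at E14.5 and 14.13 to 14.28 (median 14.24) at 1 month, without overlap. Ppia (0.049) was not called. After quantile normalization it was called lower (−0.17), and Gapdh was higher by only 0.17, and with embryos 1 and 6 alone the difference of Ppia was −0.021.

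Pairs of related genes known as early and late forms during neuronal maturation were compared within each mouse. In 18 pairs, the change of the late member minus the early member was positive in 16. Of the 18 changes, 17 had an adjusted p below 0.05 by exact permutation tests. The pairs were chosen as known early and late forms, so these counts are not independent of that choice. For each of the 17, no mouse of one age overlapped with the other age, and the exact p of 0.0022 was the smallest that 6 against 6 mice can give. Most single genes also differed between the ages, with 85.7% called and with groups that did not overlap in 35% that were higher and 33.5% that were lower, and the count of pairs that passed is to be read against these shares. In 6 pairs the early member fell and the late member rose. Slc17a7 minus Slc17a6, the vesicular glutamate transporters, changed by 7.29 between the ages, with an SD between mice of 0.6 at E14.5 and 0.25 at 1 month (n = 6 each). Ezh1 minus Ezh2 changed by 6.54 between the ages, with an SD between mice of 0.27 at E14.5 and 0.21 at 1 month (n = 6 each). Both pairs changed by more than any other.

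The other crossed pairs were Tubb4a and Tubb2b, tubulins, with a change of 6.17, Eef1a2 and Eef1a1, translation elongation factors, with 5.22, Map1a and Map1b with 4.91, and Scn1a and Scn3a, sodium channels, with 4.87. In 5 pairs of receptor, transporter and scaffold genes, both members rose and the late member rose more. These included Grin2a over Grin2b (3.5), Nefh over Nefm (2.8), Slc12a5, the chloride exporter, over Slc12a2 (2.48), and Dlg4 over Dlg3 (0.74). In Dpysl2 and Dpysl3 (4.25), Actl6b and Actl6a (1.95), Smarcc2 and Smarcc1 (1.16) and Ptbp2 and Ptbp1 (0.82), both fell and the late member fell less. Chd4 fell while Chd3 was not called (1.61).

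Pairs of BAF complex subunits differed among themselves. The neuronal subunit Actl6b fell by 0.54 against a fall of 2.49 in its progenitor counterpart Actl6a. Dpf1 fell by more than Phf10, a change of −0.35 against the direction of the other pairs. Ss18l1 and Ss18 both fell, and the change of −0.0028 between them did not pass the test (exact permutation p = 0.985, adjusted over the 18 pairs). Without single mice this change lay between −0.095 and 0.047.

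**Figure D4:**
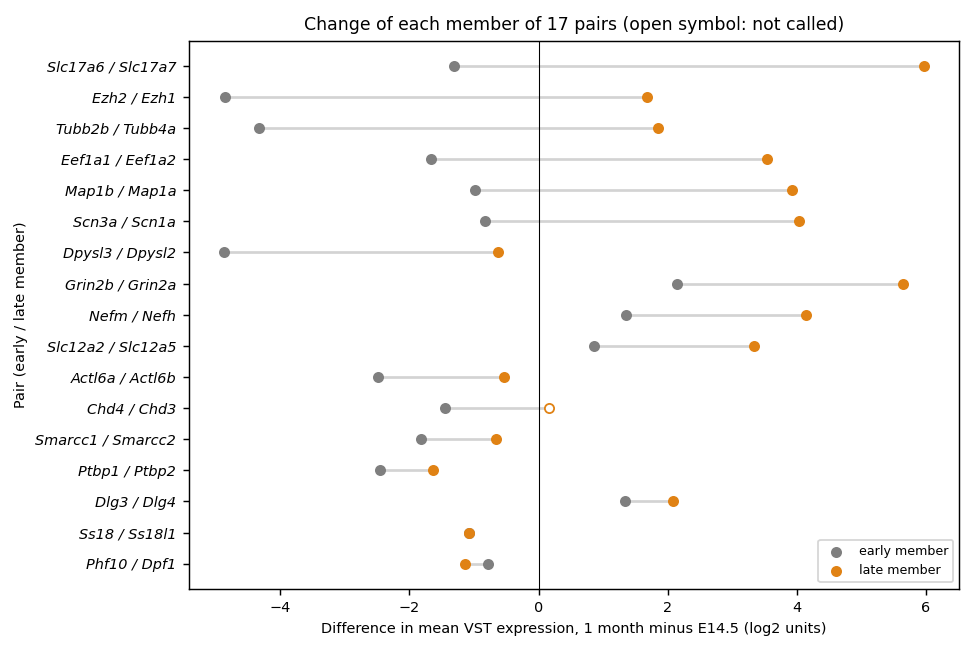
Difference in mean VST expression between 1 month and E14.5 (log2 units) for the early (grey) and late (orange) member of 17 of the 18 pairs, ordered by the change of late minus early. Filled symbols are called genes. The late member lies to the right in 15 of these pairs, does so by 7.29 in Slc17a6 and Slc17a7, and lies to the left by 0.35 in Phf10 and Dpf1.

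The same comparison in Chd8 V986*/+ mice asked whether maturation differed with the mutation. Chd8 itself was checked first in these libraries. At E14.5 it was 11.60 to 12.03 (median 11.98) in the 6 heterozygous mice, a mean difference from WT of −0.63, and at 1 month it was 10.94 to 11.11 (median 11.05), a difference of −0.67 (exact two-sided permutation p = 0.0022 at each age). At neither age did a heterozygous mouse overlap with WT. Between E14.5 and 1 month, 3954 genes had large increases (22.9%) and 3135 had large decreases (18.1%) in the heterozygous mice. Of the genes with a large increase, 3720 were shared, which is 94.6% of the WT and 94.1% of the heterozygous list. Of those with a large decrease, 2877 were shared, which is 94.2% and 91.8%. No gene had large changes of opposite sign. Across genes, which are not independent replicates, the changes correlated at r = 0.991.

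The difference of the change between genotypes was tested gene by gene in limma. Of 17249 genes tested, 0 (0%) were called, 662 had an unadjusted p below 0.05, and the lowest adjusted p was 0.155, that of Hmgb3. The median half-width of the 95% confidence interval of this difference, without adjustment over genes, was 0.26 log2 units. The adjusted threshold asked for more than this, so 0 calls do not exclude differences above 0.26. Mag, for example, differed by 0.51 between genotypes (SE 0.18) and was not called (limma adjusted p = 0.999). Leaving out WT replicate 6 at E14.5 gave 9 calls, and leaving out any other library gave 0 or 1. Among the 43 lists, the midbrain, hindbrain and spinal cord markers had the widest gap between genotypes, with a median change of −1.93 in WT and −0.52 in heterozygous mice. The mean of these markers at E14.5 ranged from 3.04 to 6.58 in WT and from 3.26 to 4.39 in heterozygous embryos, and its part in the genotype difference was not tested.

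**Figure D5:**
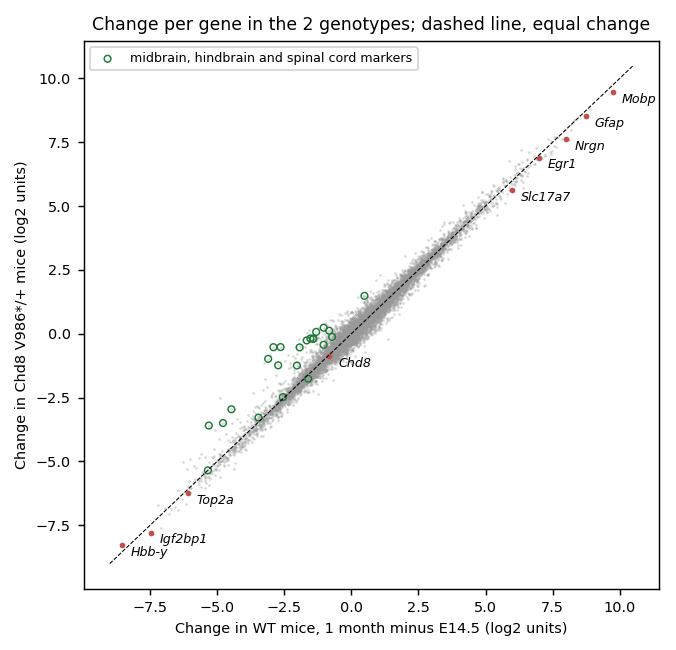
Change per gene from E14.5 to 1 month in WT mice (horizontal axis) and in Chd8 V986*/+ mice (vertical axis), in log2 units, with the line of equal change dashed. Red points are named genes, and green circles are midbrain, hindbrain and spinal cord markers, most of which lie above the line. Most genes lie along the line, and the correlation across genes was 0.991.

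Change after 1 month was small by comparison. WT mice at 6 months differed from the same 1-month mice in 4224 genes (24.4%), but by at least 1 log2 unit in 88 (0.509%). The median absolute difference was 0.11 log2 units, against 0.79 from E14.5 to 1 month. Both comparisons use the 1-month mice. Among the lists, mitosis genes had a median difference of −0.7 between 6 months and 1 month, myelin genes of −0.75 and oligodendrocyte precursor genes of −0.42. Synaptic vesicle genes had a median of 0.00034. Mobp, which gained most before 1 month, had a mean of 13.24 ± 0.2 (SD, n = 6) at 1 month, 12.51 ± 0.13 at 6 months and 12.65 ± 0.33 at 12 months. Top2a was 7.0 ± 0.43, 5.55 ± 0.24 and 4.93 ± 0.47 at the same ages.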

How the data were processed

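Cortical RNA of WT mice at E14.5 and 1 month was analysed, 6 mice per age. The authors filtered reads, trimmed adapters, aligned with STAR 2.5.2b to mm9, quantified transcripts with Salmon 0.11.3 and deposited log2 VST values from DESeq2 1.22.2. The library kit is given as stranded KAPA in the methods and as TruSeq in the labels. Over the 48 libraries, no gene's means of replicates 1 to 3 and 4 to 6 differed by more than 3.38e-14, which shows that the authors had removed a batch effect between these sets. Fits without a term for these sets do not count that removal in their degrees of freedom, and the sets were added as a covariate in an alternative. The VST values do not give the read counts behind single values. The study lists a read depth for each library, which was not used here. Precision is given by the spread between mice.

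Genes with a mean at least 0.5 above the floor were tested with limma 3.58.1 in R 4.3.3, with an intensity trend and Benjamini-Hochberg adjustment. The fitting was tested on simulated data. Pairs were tested with exact two-sided permutation tests. Genes named were the 10 largest changes each way, up to 4 called genes in a list's main direction and up to 3 in the other, all genes of lists with at most 9 genes, all pairs, and tissue markers. Sox2, Hes5, Nkx6-2, Hcn2, Nlgn2, Nlgn3, Nrxn2, Gapdh, Hmgb3, Cdc6 and Mcm6 were named after their values were seen. Members and lists were chosen with earlier results of these data known. Alternatives were other filters, variance settings and scalings, covariates, a threshold of 0.05, a test against 1 log2 unit, one fit of all 48 samples, a replicate block and leaving out each mouse. Added later was a comparison with embryos 1 and 6 alone. Some named genes are not reported here. Gene coordinates are from GENCODE in mm9. Python 3.11.15 and matplotlib 3.10.9 were used.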

Additional observations from a re-analysis of the deposited data

Results flagged for a closer look

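Among 528 groups of 6 mice, 2 for each gene named, 43 held a mouse whose distance to the nearest other mouse was above Dixon's critical share of the range of its group, where chance gives about 1 in 20. Embryo 6 gave 12 of them and embryo 1 gave 8. Values are VST values on the log2 scale.

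Embryo 1 had the highest value of Eef1a1 (17.18, nearest 16.98) and the lowest value of Map1a (11.29, nearest 11.95), Grik3 (11.76, nearest 12.21), Ncan (13.41, nearest 14.03), Chd6 (11.75, nearest 12.05), Sdha (11.90, nearest 12.07), Map1b (15.78, nearest 16.46) and Smarcc2 (13.59, nearest 13.82). Embryo 3 had the lowest value of Egr4 (1.99, nearest 2.88). Embryo 4 had the highest value of Igf2 (12.86, nearest 12.53) and Myh11 (5.22, nearest 4.92). Embryo 5 had the highest value of Psmb9 (4.40, nearest 3.39) and the lowest value of Itpka (3.35, nearest 4.26), Cort (2.21, nearest 3.02), Pdgfra (9.28, nearest 9.68) and Tmem119 (5.59, nearest 6.05). Embryo 6 had the highest value of Igf2bp1 (11.47, nearest 10.99), Mcm2 (11.87, nearest 11.31), Cdc6 (9.10, nearest 8.51), Lhx6 (11.01, nearest 10.49), Egr1 (7.05, nearest 6.63), Acan (4.39, nearest 3.87), Uhrf1 (11.83, nearest 11.18) and Ezh2 (12.36, nearest 12.01) and the lowest value of Nap1l5 (9.36, nearest 10.30), Vamp1 (5.93, nearest 6.63), Nkx2-2 (6.05, nearest 7.53) and Eno2 (9.21, nearest 9.71).

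Replicate 1 at 1 month had the highest value of Eomes (6.84, nearest 5.15) and the lowest value of Tnr (11.59, nearest 11.80). Replicate 2 at 1 month had the highest value of Actb (15.03, nearest 14.90). Replicate 3 at 1 month had the highest value of Psmb10 (9.12, nearest 8.94) and the lowest value of Atp5s (8.05, nearest 8.27). Replicate 4 at 1 month had the highest value of Pfkp (12.59, nearest 12.49), Msmo1 (11.55, nearest 11.48) and Eef1a2 (14.86, nearest 14.72) and the lowest value of Slc4a1 (4.04, nearest 4.81) and Chd7 (8.88, nearest 9.08). Replicate 5 at 1 month had the highest value of H19 (7.21, nearest 5.39), Sox2 (10.55, nearest 10.23) and Pdgfra (11.23, nearest 11.09) and the lowest value of Aldoa (14.96, nearest 15.07). Replicate 6 at 1 month had the lowest value of Chd9 (10.94, nearest 11.08).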

How the results depend on the processing

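Leaving out each mouse in turn gave 7416 to 7514 genes called higher, 7211 to 7324 called lower, 3891 to 3967 with large increases and 3037 to 3109 with large decreases. The other settings gave 3176 to 4055 large increases and 2395 to 3530 large decreases, the lowest of each from the test against a change of 1 log2 unit. Quantile normalization moved the share of increases among called genes from 50.7% to 45.9%. The replicate numbers of the ages did not pair the mice. Same-numbered mice had deviations from their group means that correlated between −0.066 and 0.068, and 0 of 6 correlated best with their own number. With the replicate number as a block, 7477 genes were called higher and 7265 lower, large changes numbered 3932 and 3055, the genotype test gave 0 calls, and 17 pairs passed the sign-flip test, whose smallest p is 0.031.

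Of 264 named genes under 24 settings, 6279 of 6334 values kept their direction and side of the threshold, 46 lost the call, of which 44 did so in the test against 1 log2 unit, and 4 changed sign. The sign changed with embryos 1 and 6 alone in Nkx2-2 (0.60) and Ppia (−0.021), and under quantile normalization in Chd3 (−0.43, limma adjusted p = 4.78e-05) and Ppia (−0.17, limma adjusted p = 0.0194). Leaving out single mice gave −0.095 to 0.047 for Ss18l1 minus Ss18. The cause was not tested. The genotype difference of the change gave 1 call without a filter on low values, and 0 to 9 calls when single libraries were left out. The 9 calls came without WT embryo 6, and 1 call each without heterozygous replicate 3 at E14.5 or at 1 month. Depth limits genes near the floor, whose VST differences understate their change, and no count intervals could be given.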
